A study of Mus musculus with 42 samples.

Results

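Mitochondrially encoded transcripts are the RNAs made from the small circular genome inside the mitochondrion. They were taken here as every gene of the count table whose symbol starts with mt-, which gave 35 of 55011 genes: 13 protein genes and 22 tRNA genes. The mitochondrial rRNA genes mt-Rnr1 and mt-Rnr2 were not analysed here. Of the 35 genes, 33 had at least 1 count, 8 had a count in each of the 42 libraries, and 21 passed the filter on low counts in at least 1 comparison (11 protein genes and 10 tRNA genes).

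Mitochondrial DNA is transcribed from both strands into long RNAs by the polymerase POLRMT with the packaging factor TFAM. The tRNAs sit between the protein genes and are cut out, which frees the mRNAs, and most of these receive a poly(A) tail. The mRNAs are then kept stable by the LRPPRC and SLIRP proteins. The proteins are core subunits of the respiratory chain and of ATP synthase, which also need many subunits encoded in the nucleus. Mitochondria multiply when preadipocytes become adipocytes, a process in which the coactivator PGC-1alpha (Ppargc1a) takes part.

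The 42 libraries held poly(A) RNA of cells from mouse visceral adipose tissue (VAT), in 15 groups. All stromal cell groups carried the genotype Pparg-Tdt. Stromal cells labelled VmSC4 or VmSC5 were taken fresh and once 8 days of adipogenic differentiation in culture had passed (n = 3 in all 4 groups). Cells recovered from Kaeda mice that had received them were the transferred groups: 3 libraries of VmSC4-derived VmSC4, 3 of VmSC4-derived VmSC5 and 2 of VmSC5-derived VmSC5. VmSC5 in adipogenic medium were also grown with or without regulatory T (Treg) cells (n = 3 each), and with 10 ng/mL of the cytokine oncostatin M (OSM) or with PBS (n = 3 each). For the Treg experiment the series text speaks of Treg conditioned medium, while the titles say only with or without Treg. Floating cells, labelled adipocytes, came from Pparg-Tdt mice that were Foxp3-DTR+ or Foxp3-DTR- (n = 2 each). All of these mice received diphtheria toxin, which removes Treg cells only where the DTR receptor is carried. Treg cells were OSM+/+ (Osm WT) or OSMf/f (Osm KO; n = 3 each), and the labels do not give the Cre line. Freshly isolated cells were double-sorted, culture wells were lysed in place, and the floating cells entered as purified RNA. Nothing in the labels ties replicates to separate animals or wells, and p-values here therefore reflect only the spread among these samples, which may be technical.

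Total counts ran from 1072147 to 12514783 per library, the lowest being an OSM culture and the highest a fresh VmSC4 library. The stromal marker list summed to 38736 to 44943 CPM (counts divided by the library total, times 1e+06) in fresh VmSC4, the Treg marker list to 2485 to 3617 CPM in Osm KO Treg cells, and the adipocyte marker list to 23794 to 32045 CPM in floating cells, so these groups carried the markers of their labels. Osm stood at 28.4 to 34.1 CPM in the 3 Osm WT libraries and at 7.76 to 14.6 CPM in the 3 Osm KO libraries. 3 libraries stood apart. Treg Osm KO replicate 1 had Foxp3, the defining factor of Treg cells, at 154 CPM, and the other 5 Treg libraries had 294 to 359 CPM. In Treg Osm KO replicate 2 only 16756 genes had a count, while the remaining Treg libraries had 21202 to 24287. Foxp3-DTR+ replicate 3 had 15351 genes with a count, where its floating counterparts had 17034 to 17903, and 149 CPM of the nuclear RNA Malat1, against 400.0 to 776 CPM.

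Parts of some mitochondrial genes were near-identical to annotated nuclear transcripts, so reads from those parts can match several places. At chr1:24611535-24616197 (GRCm38, minus strand) GENCODE M21 annotates 7 transcripts that are near-identical to parts of mitochondrial protein genes. They follow each other in the order of the mitochondrial genome, between chrM:6390-11042 (4653 bases), called the copied region here. Only annotated transcripts were aligned, so the stretches between them, which hold most of mt-Atp8 and of the tRNA genes of the region, were not compared, and inside the region means by position. The copies Gm28661, Gm10925, Gm28437, Gm10222 and Gm28439 matched mt-Co2, mt-Atp6, mt-Co3, mt-Nd4l and mt-Nd4 without a mismatch over 681, 678, 783, 294 and 876 aligned bases. Gm29216 matched the end of mt-Co1 with 1 mismatch in 483 bases, and Gm28438 matched mt-Nd3 with 1 mismatch in 345 bases. The sequences below show how closely some members match an annotated nuclear transcript. The first bases of mt-Nd3 and of its copy hold the only mismatch of that pair, those of mt-Co2 and its copy are identical, and bases 61 to 120 of mt-Cytb, outside the region, differ from its best annotated match Gm11410 at 5 bases. Capitals mark mismatches, and all sequences are GENCODE M21 transcripts, 5′ to 3′.
mt-Nd3: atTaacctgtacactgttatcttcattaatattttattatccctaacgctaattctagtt
Gm28438: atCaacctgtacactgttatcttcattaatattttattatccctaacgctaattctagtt
mt-Co2: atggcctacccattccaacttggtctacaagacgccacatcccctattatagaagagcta
Gm28661: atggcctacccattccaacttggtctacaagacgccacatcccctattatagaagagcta
mt-Cytb: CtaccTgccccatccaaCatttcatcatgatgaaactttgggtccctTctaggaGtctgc
Gm11410: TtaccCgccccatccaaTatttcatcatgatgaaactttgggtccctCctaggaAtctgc

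Counts of the protein genes split along this border. The 6 protein genes that lie wholly inside the copied region (mt-Co2, mt-Atp8, mt-Atp6, mt-Co3, mt-Nd3 and mt-Nd4l) held 3547 counts over all 42 libraries, 0.0455% to 0.187% of the mitochondrial counts of a library. The 5 outside it (mt-Nd1, mt-Nd2, mt-Nd5, mt-Nd6 and mt-Cytb) held 56.1% to 82.1%, and mt-Co1 and mt-Nd4, which lie partly inside, held 17.6% to 43.7%. Per kilobase of gene length, the medians over the libraries ran from 1.03 to 11.6 CPM per kb for the 6 genes inside and from 127 to 4248 CPM per kb for the 5 outside. The lowest gene outside was thus above the highest gene inside. mt-Co1 stood at 2230 and mt-Nd4 at 642 CPM per kb, with 31.3% and 63.6% of their bases inside. Copies elsewhere in the nuclear genome also matched: Gm13340 was 97.6% identical to mt-Co1 over 1545 bases. Of all 50-base stretches of a gene, 51.1% of those of mt-Co1 and 62.2% of those of mt-Nd4 occurred in an annotated nuclear transcript, against 98.0% to 100% for mt-Co2, mt-Atp6, mt-Co3, mt-Nd3 and mt-Nd4l. The shares were 8.19% for mt-Nd2, 7.61% for mt-Nd5, and 0% for mt-Nd1, mt-Nd6, mt-Cytb and also mt-Atp8, whose best annotated match Gm28925 was 81.4% identical. The nuclear copies themselves held 6 to 390 counts per library. How reads that match several places were counted is not given in the sources used here, and its part in this split was not tested. The levels and changes of the 6 genes inside the region are therefore uncertain, and less so those of mt-Co1 and mt-Nd4.

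**Figure D1:**
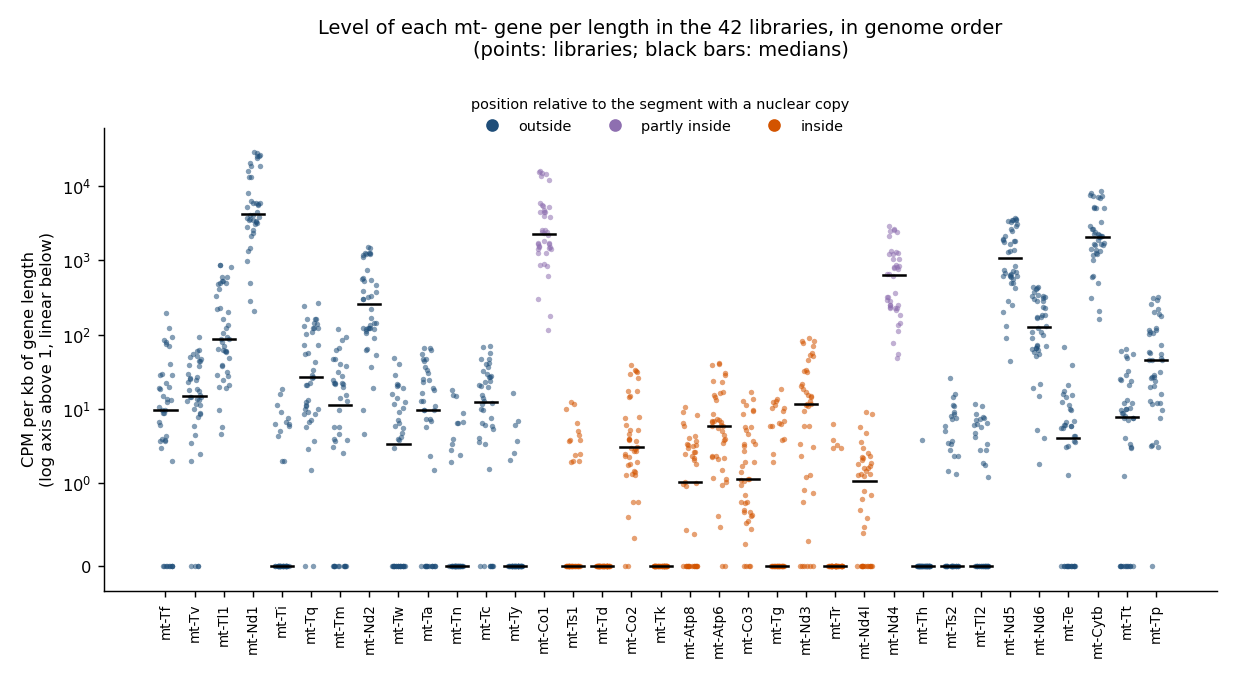
CPM per kb of gene length (y axis; logarithmic above 1, linear below) for each of the 35 mt- genes (x axis, in genome order), coloured by position relative to the copied region. Points are the 42 libraries and black bars their medians; the protein genes inside the region have medians of 1.03 to 11.6, those outside 127 to 4248.

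Among the genes outside the region, complex I subunit mt-Nd1 had the highest median, at 4248 CPM per kb, followed by the complex III subunit mt-Cytb at 2080 and the complex I subunits mt-Nd5 at 1077 and mt-Nd2 at 260 CPM per kb (259.7 before rounding). mt-Nd6, the only protein gene on the opposite strand, had 127 CPM per kb. The strand setting of the counting is not given in the sources used here, so reads of mt-Nd6 and of RNA from the other strand at that place cannot be told apart. Pooled over all libraries, mt-Nd1 took 34.6% of all mitochondrial counts, mt-Co1 28.3%, mt-Cytb 16.1%, mt-Nd5 13.3%, mt-Nd4 5.00%, mt-Nd2 2.08% and mt-Nd6 0.452%. The order of the first 2 was not the same in every group: mt-Co1 was above mt-Nd1 in both groups of floating cells and in cultures with Treg, and on the mean in fresh VmSC4.

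The 22 tRNA genes together took 0.0487% to 0.362% of the mitochondrial counts of a library. Mature tRNAs have no poly(A) tail. mt-Tl1, a leucine tRNA next to mt-Nd1, had the highest mean share over the groups, at 0.0639% of the mitochondrial counts and 2560 counts in all. mt-Tp, mt-Tq and mt-Tv followed at 0.0227%, 0.0215% and 0.00837%. mt-Td and mt-Tk lie between annotated copies, in stretches that were not compared. They had no count in a total of 206719796, which allows up to 0.0145 CPM of counted reads over all libraries. How reads that match several places were counted is not given, so this is not a limit on the level of these tRNAs. The most counted tRNA and one of the uncounted ones are shown in full.
mt-Tl1: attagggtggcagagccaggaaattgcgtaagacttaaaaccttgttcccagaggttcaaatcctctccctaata
mt-Tk: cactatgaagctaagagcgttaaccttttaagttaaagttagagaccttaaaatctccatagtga

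The share of all counts that fell in mitochondrially encoded genes, called the mitochondrial share here, differed widely between groups. It was lowest in fresh VmSC5, at 0.114% ± 0.048 (SD, n = 3), and fresh VmSC4 had 0.378% ± 0.064 (n = 3). The transferred cells had group means of 0.774% to 0.965%, and the Treg cells of 0.831% (WT) and 0.880% (KO). Cultures with OSM had 1.59% ± 0.058, with Treg 1.91% ± 0.13, with PBS 2.60% ± 0.28 and without Treg 4.24% ± 0.16 (n = 3 each). Floating cells had 1.98% ± 0.17 (DTR-) and 2.76% ± 0.30 (DTR+; n = 2 each). Adipogenic cultures of VmSC4 and VmSC5 were highest, at 6.51% ± 0.40 and 6.82% ± 0.48 (n = 3 each).

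In this order the libraries of neighbouring groups overlapped from the VmSC4-derived VmSC4 through both Treg groups to the transferred VmSC5, between cultures with Treg and DTR- floating cells, between PBS cultures and DTR+ floating cells, and between both adipogenic cultures. Other neighbours did not overlap. Groups of different experiments also differ in preparation and depth, so differences between such groups were not tested. Counting error was small beside this spread: in the fresh VmSC5 library with the lowest share, 6158 of 8527769 counts gave 0.0722% with a 95% exact Clopper-Pearson interval of 0.0704% to 0.0740%. Intervals and limits cover counting error only. In bulk samples, fewer cells of a type and less RNA per cell cannot be told apart.

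**Figure D2:**
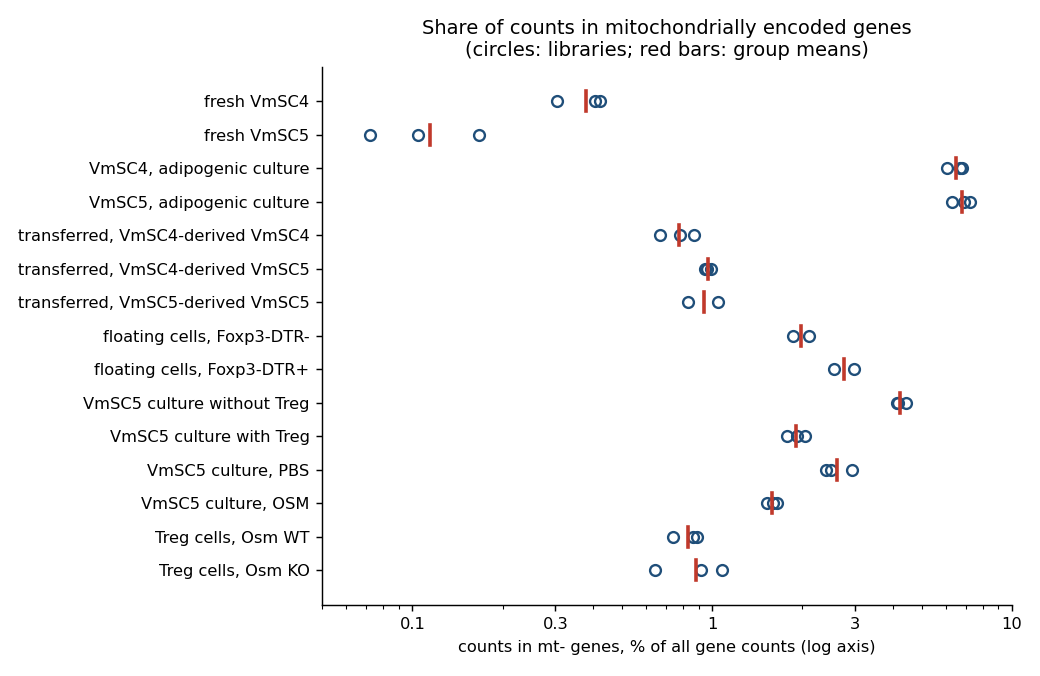
Counts in mt- genes as percent of all gene counts (x axis, logarithmic) in the 15 groups (y axis). Circles are libraries and red bars group means; fresh VmSC5 lie lowest, at 0.0722% to 0.167%, and the adipogenic cultures highest, at 6.05% to 7.26%.

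The balance between members was steadier than the share in some experiments and moved in others. The ratio of mt-Nd1 counts to mt-Co1 counts, the 2 members with the most counts, was chosen as a measure of balance after the values were seen. It was 0.992 ± 0.056 in fresh VmSC4, 1.05 ± 0.074 in fresh VmSC5, 1.21 ± 0.14 and 1.07 ± 0.12 in the VmSC4 and VmSC5 adipogenic cultures and 1.22 to 1.36 in the means of the transferred groups. Floating cells had the lowest ratios, at 0.583 ± 0.031 (DTR-) and 0.800 ± 0.061 (DTR+). Ratios were highest in the cultures that served as controls, at 2.23 ± 0.072 without Treg and 3.82 ± 0.31 with PBS.

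**Figure D3:**
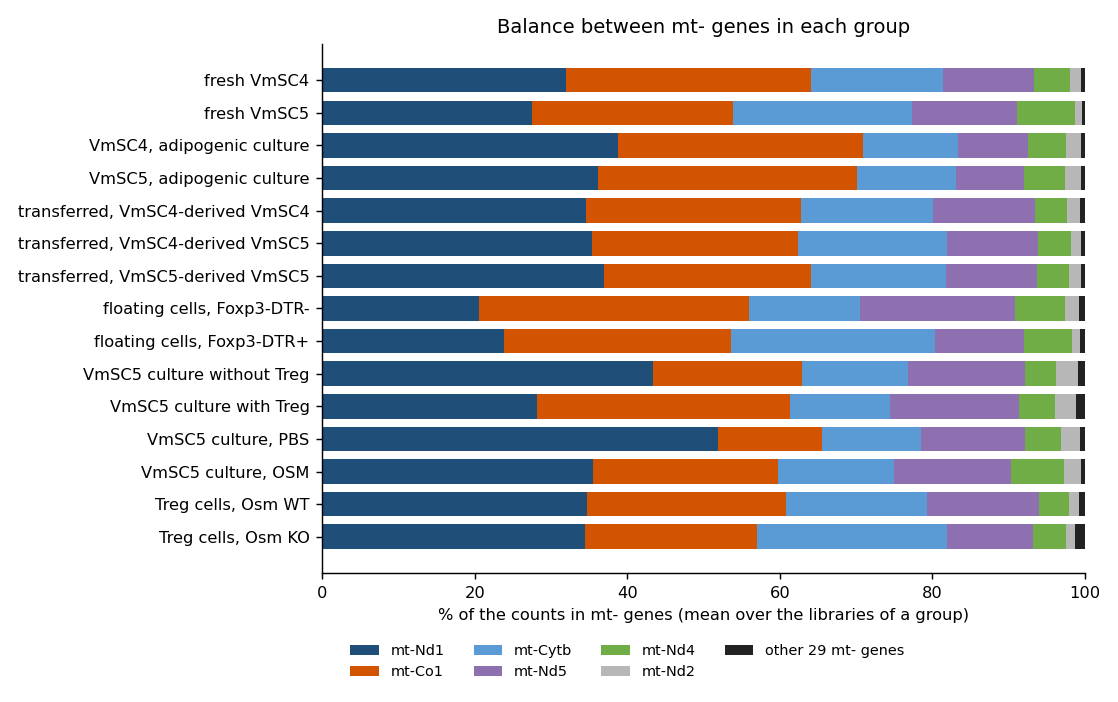
Mean share of the mt- counts (x axis, percent) taken by 6 protein genes and by the other 29 mt- genes together, in each of the 15 groups (y axis). mt-Nd1 takes 51.9% of the bar in PBS cultures and 20.6% in DTR- floating cells, and mt-Co1 13.6% and 35.4%.

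The first comparison set fresh VmSC5 against fresh VmSC4, the state that precedes transfer and culture. Mitochondrial transcripts were lower in fresh VmSC5, while nuclear genes of the respiratory chain were on the whole not. The mitochondrial share was 0.167%, 0.104% and 0.0722% in the 3 VmSC5 libraries and 0.304%, 0.407% and 0.423% in the 3 VmSC4 libraries. Every VmSC5 library lay below every VmSC4 library, a 3.47-fold difference. With 3 libraries against 3, the exact two-sided permutation test can give no p below 0.10, and it gave 0.10 (0.150 after Benjamini-Hochberg adjustment over the 12 comparisons of this kind).

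Gene by gene, 8 of 10 tested members were lower in fresh VmSC5 and 0 higher, where 11% of all tested genes were called lower. mt-Nd1 was at 473, 275 and 201 CPM in VmSC5, while the VmSC4 libraries had 941, 1281 and 1410 CPM (a log2 difference of -1.85 ± 0.27 (SE), edgeR adjusted p = 0.000707). mt-Co1, the catalytic subunit of cytochrome oxidase, was at 471, 274 and 177 CPM against 961, 1357 and 1338 CPM (-1.91 ± 0.28, edgeR adjusted p = 0.00082). Neither gene overlapped between the groups. Falls of the other called members ran from -1.03 ± 0.14 for mt-Nd4 to -2.21 ± 0.28 for mt-Nd6. mt-Co2 (-1.59 ± 0.70) and mt-Nd3 (-1.63 ± 0.82) did not pass (edgeR adjusted p = 0.121 and 0.174). The mt-Nd5 call ended with only these groups in the fit (edgeR adjusted p = 0.0554) and the mt-Tl1 call without the low-count filter and without VmSC5 replicate 2 or 3 (highest edgeR adjusted p = 0.0778).

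The nuclear partners of these genes moved less. Of 56 tested nuclear subunits of oxidative phosphorylation, 0 were higher and 8 lower, with a median log2 fold change of -0.03 against -0.018 over all genes. Ndufv2, a complex I subunit, fell by 0.95 on the log2 scale (SE 0.17), and Uqcrb, a complex III subunit, by 1.15 (SE 0.23). Cox4i1, a cytochrome oxidase subunit, was at 360 ± 26.5 CPM in VmSC5 (360.0) and 323 ± 14.7 CPM in VmSC4, and it did not pass (0.25 ± 0.11, edgeR adjusted p = 0.133). Of 46 genes for transcription and handling of mitochondrial RNA, 4 were higher and 6 lower. Ppargc1a was lower in VmSC5 (-1.96 ± 0.46, edgeR adjusted p = 0.00481), while Polrmt, Tfam, Lrpprc and Slirp did not pass (edgeR adjusted p = 0.142, 0.289, 0.395 and 0.534). Malat1 was lower as well, at 619 to 897 CPM against 1024 to 1864 CPM, and its part in the result was not tested.

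Adipogenic culture was compared with fresh cells to ask what differentiation changes in each population. Mitochondrial transcripts rose with every nuclear subunit of the respiratory chain that was tested. The mitochondrial share was 6.81%, 6.05% and 6.68% in VmSC4 cultures, 17.4-fold above fresh VmSC4, and 6.31%, 7.26% and 6.91% in VmSC5 cultures, 63.2-fold above fresh VmSC5. Culture and fresh libraries did not overlap (exact permutation p = 0.10 in both, the smallest possible, and 0.150 after Benjamini-Hochberg adjustment).

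All 21 tested members were called higher in VmSC4 cultures, where 31.9% of all genes were, and all 21 in VmSC5 cultures, where 33.4% were. Of these 21, 11 did not pass the filter in the fit of fresh and transferred cells, and they could pass it here through the cultures alone. Of the 8 members counted in every library, 8 rose in each population, by a median of 4.70 in VmSC4 (range 4.19 to 5.10) and 6.55 in VmSC5 (range 5.51 to 7.37) on the log2 scale. mt-Nd1 reached 25220 ± 1374 CPM in VmSC4 cultures and 24714 ± 2618 in VmSC5 cultures, mt-Co1 20968 ± 2585 and 23154 ± 1170, and mt-Cytb 8160 ± 300 (300.1) and 8838 ± 678. mt-Nd2, at 53.6 ± 14.9 CPM in fresh VmSC4 and 11.7 ± 7.82 in fresh VmSC5, had the largest rise of the 8, to 1267 ± 15 and 1450 ± 148 CPM. mt-Tl1 rose from 1.93 ± 0.29 and 0.499 ± 0.20 CPM to 35.8 ± 4.47 and 33.8 ± 7.81 CPM.

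The nuclear subunits of oxidative phosphorylation were called higher for 58 of 58 in both populations, with medians of 3.21 and 3.20, below those of the mitochondrial members; the median of all genes was -0.235 and -0.181. Cycs, cytochrome c, rose by 5.63 ± 0.14 in VmSC4 and 6.21 ± 0.14 in VmSC5, and Cox4i1 by 3.40 ± 0.12 and 3.05 ± 0.12. Of 46 genes of mitochondrial RNA synthesis and handling, 39 rose and 3 fell in each. Slirp rose by 2.60 ± 0.16 and 2.50 ± 0.16, Tfam by 0.94 ± 0.22 and 1.48 ± 0.22, and Ppargc1a by 3.14 ± 0.36 and 4.8 ± 0.43. Polrmt rose in VmSC4 (0.80 ± 0.24, edgeR adjusted p = 0.00643) and did not pass in VmSC5 (0.10 ± 0.24, edgeR adjusted p = 0.732), while Lrpprc had 0.25 ± 0.25 (edgeR adjusted p = 0.382) and 0.68 ± 0.25 (edgeR adjusted p = 0.0188). The difference between the populations passed for neither (-0.70 ± 0.34, edgeR adjusted p = 0.298, and 0.43 ± 0.35, edgeR adjusted p = 0.567). Genes of mitochondrial translation had 29 and 28 of 31 higher, led by the ribosomal subunit gene Mrps22 (4.27 ± 0.17 and 5.02 ± 0.18). The adipocyte marker list summed to 28449 to 30858 CPM in the cultures and 86.8 to 159 CPM in the fresh cells. Preparation and depth differed as well, so their part and that of culture cannot be told apart.

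After culture the populations stood close together. The mitochondrial share overlapped between them (log2 difference 0.07, exact permutation p = 0.400), and 0 of 21 members passed in edgeR, where 0.340% of all genes were called in either direction. At an unadjusted p under 0.05 there were also 0 members, against 1040 of 13221 genes, and DESeq2 called 0 members. Fold changes of the 8 members counted everywhere ran from -0.11 to 0.25 on the log2 scale, with mt-Nd1 at -0.06 ± 0.25 and mt-Co1 at 0.11 ± 0.29. No nuclear subunit of the 58 passed either (median -0.071).

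The difference between the responses was tested as an interaction, which uses the same fresh libraries as the comparison of fresh VmSC5 with fresh VmSC4 and is not separate from it. In it 7 of 21 members had a larger rise in VmSC5, where 1.85% of all genes did. 11 of the 21, mt-Atp6 among them, could pass the filter through the cultures alone; of the 8 counted in every library, 6 were called. They were mt-Nd6 (2.47 ± 0.28, edgeR adjusted p = 8.99e-06), mt-Nd4 (1.16 ± 0.19, edgeR adjusted p = 0.00066), mt-Cytb (1.32 ± 0.22, edgeR adjusted p = 0.0016), mt-Nd1, mt-Atp6, mt-Co1 and mt-Tl1. Only mt-Nd6, mt-Nd4 and mt-Cytb kept the call in all 17 alternatives run. The count was 4 with the replicate number as a block and 3 or 4 without VmSC4 fresh replicate 2 or 3, VmSC5 fresh replicate 2, or any of the 6 culture libraries. Among nuclear subunits of oxidative phosphorylation, 1 of 58 passed, Ndufv2 (0.90 ± 0.23, edgeR adjusted p = 0.0345).

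The transferred cells were compared with fresh cells of the same name. These comparisons share the fresh libraries with those of the cultures. Mitochondrial transcripts were higher after transfer while most nuclear subunits of the respiratory chain were lower. The mitochondrial share was 0.871%, 0.670% and 0.781% in VmSC4-derived VmSC4, 2.06-fold above fresh VmSC4, and 1.05% and 0.831% in VmSC5-derived VmSC5, 8.64-fold above fresh VmSC5. Neither overlapped with its fresh group (exact permutation p = 0.10 in both, the smallest possible, and 0.150 after Benjamini-Hochberg adjustment).

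In VmSC4-derived VmSC4, 8 of 10 tested members were higher than in fresh VmSC4 and 0 lower, where 21.4% of all genes were called higher. mt-Nd1 was at 3097, 2240 and 2702 CPM, above each fresh library (1.17 ± 0.26, edgeR adjusted p = 0.0034), and mt-Nd6 rose by 1.81 ± 0.23. mt-Co1 rose by 0.87 ± 0.27, a call that ended without the low-count filter and without fresh VmSC4 replicate 1 or 2 or transferred replicate 3 (highest edgeR adjusted p = 0.108). In VmSC5-derived VmSC5, 9 of 10 members were higher than in fresh VmSC5, where 23.9% of all genes were. There mt-Nd1 was at 3868 and 3066 CPM (3.41 ± 0.30, edgeR adjusted p = 2.7e-06) and mt-Nd6 at 37.8 and 28.9 CPM (4.04 ± 0.29, edgeR adjusted p = 4.99e-11). mt-Nd3, inside the copied region, rose by 3.08 ± 0.59 and 4.86 ± 0.75, from at most 0.805 CPM in any fresh library to 2.03 to 5.83 CPM. It could thus pass the low-count filter through the transferred cells alone. mt-Co2, also inside the region, did not pass (-1.05 ± 0.77 and 0.81 ± 0.89, edgeR adjusted p = 0.277 and 0.478). Of the 8 members counted in every library, 7 were called higher in VmSC4-derived VmSC4 and 8 in VmSC5-derived VmSC5.

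Nuclear subunits of oxidative phosphorylation had 0 of 56 higher and 47 lower in VmSC4-derived VmSC4 (median -0.68, all genes -0.024), where 24.7% of all genes were called lower, and 3 higher and 31 lower in VmSC5-derived VmSC5 (median -0.48, all genes 0.011), where 22.4% were. The complex I subunit Ndufb8 fell by 1.31 (SE 0.13) in the former and Cyc1, cytochrome c1, by 1.17 (SE 0.14) in the latter. Cox4i1 was at 241 ± 29.1 CPM in VmSC4-derived VmSC4 and 274 ± 2.42 in VmSC5-derived VmSC5, a log2 fold change of -0.39 ± 0.12 and -0.45 ± 0.13. Genes of mitochondrial translation had 15 of 31 lower in each, among them Mrps7 (-1.12 ± 0.18 and -1.26 ± 0.20). Genes of RNA synthesis and handling were mixed, at 5 higher and 10 lower of 46, and 12 higher and 8 lower. Polrmt fell in both (-0.54 ± 0.21 and -0.94 ± 0.23), Gabpa, an activator of nuclear genes for mitochondria, rose in both (1.51 ± 0.20 and 2.00 ± 0.22), and Lrpprc passed in neither (edgeR adjusted p = 0.217 and 0.0983). Tfam and Ppargc1a passed only in the VmSC5 comparison (0.66 ± 0.23 and 2.47 ± 0.51), and Slirp only in the VmSC4 one (-0.83 ± 0.29); the difference between the comparisons was not tested. RNAs kept in the nucleus rose too, 4 of 4 tested and 3 of 4, and Malat1 stood at 2214 to 2998 CPM in VmSC4-derived VmSC4 against 1024 to 1864 in fresh VmSC4. The stromal marker list summed to 84142 to 127784 CPM in these transferred groups against 38736 to 44943 in the fresh ones. Dcn of that list went the other way. It stood at 14447 ± 1313 CPM in VmSC4-derived VmSC4 and 27813 ± 5491 in fresh VmSC4, and at 14956 ± 1015 in VmSC5-derived VmSC5 and 24949 ± 1921 in fresh VmSC5. Pdgfra, Col1a1, Col3a1 and Lum had higher means after transfer in both. Depth was lower after transfer, at 1967123 to 5044946 counts, and the part of these measures in the result was not tested.

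Among the transferred cells, VmSC4-derived VmSC5 and VmSC4-derived VmSC4 were compared to ask whether VmSC4 turn into VmSC5. Fresh VmSC5 had the lower share of the fresh populations, but VmSC4-derived VmSC5 had the higher share of the transferred ones, at 0.948%, 0.959% and 0.989%, above all 3 VmSC4-derived VmSC4 libraries (1.25-fold, exact permutation p = 0.10, the smallest possible, and 0.150 after Benjamini-Hochberg adjustment). Gene by gene, 0 of 10 members passed in edgeR, where 1.77% of all genes were called in either direction. At an unadjusted p under 0.05 there were 2 of 10 members and 2262 of 13947 genes, and DESeq2 called 1 member, mt-Cytb. With only these groups in the fit, 4 passed and were higher, mt-Cytb (0.51), mt-Nd4 (0.39), mt-Nd1 (0.37) and mt-Co1 (0.28 on the log2 scale). The share of all genes called in that fit is not given here, so these 4 calls cannot be set against it. Against VmSC5-derived VmSC5 the shares overlapped (1.04-fold, exact permutation p = 0.800), and 0 of 10 members passed, where 1.15% of all genes did. No member and 1534 of 13947 genes had an unadjusted p under 0.05, and DESeq2 called 0 members. The difference in share there ran from -0.11 without VmSC5-derived VmSC5 replicate 2 to 0.22 without replicate 1 on the log2 scale.

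**Figure D4:**
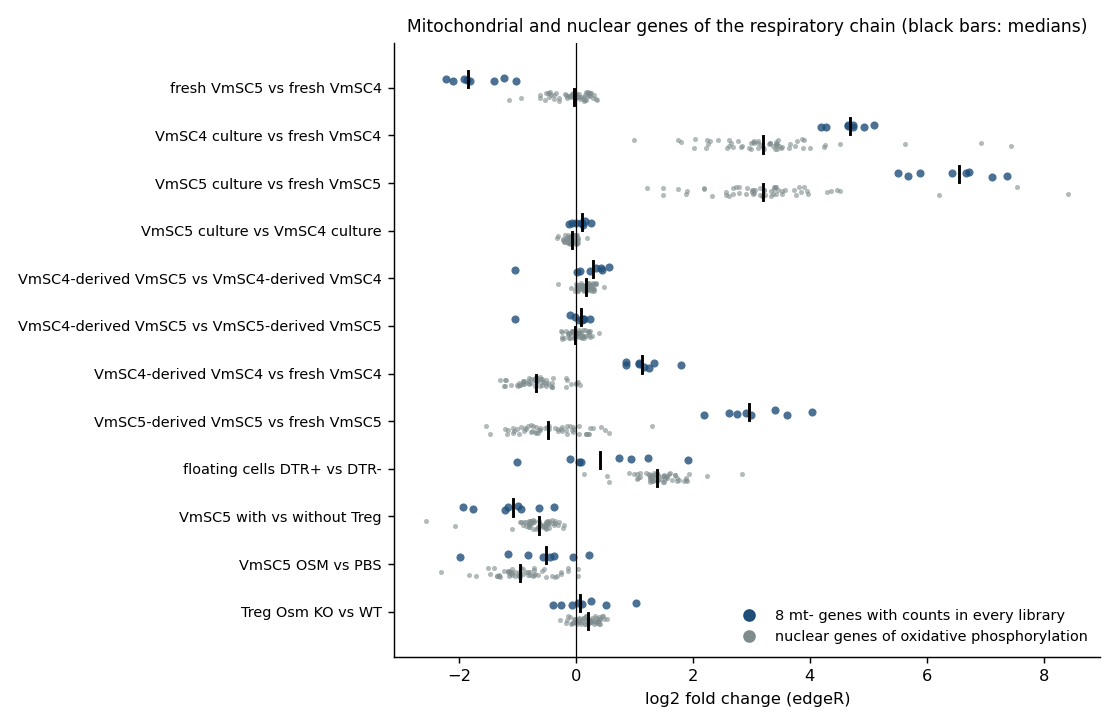
edgeR log2 fold changes (x axis) in the 12 comparisons of 2 groups (y axis) for the 8 mt- genes counted in every library (blue) and the nuclear genes of oxidative phosphorylation (grey), with black bars at the medians. Both lie above 0 in the cultures, while in VmSC4-derived VmSC4 against fresh VmSC4 the mt- median is 1.13 and the nuclear median -0.68.

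Floating cells of DTR+ and DTR- mice were compared to ask what loss of Treg cells changes in adipocytes. Mitochondrial shares were 2.54% and 2.97% in DTR+ and 1.86% and 2.10% in DTR- libraries, which did not overlap (1.39-fold). With 2 libraries against 2 the exact permutation test can give no p below 0.333, which it gave (0.444 after Benjamini-Hochberg adjustment). Of 13 tested members, 0 passed in edgeR, where 2.43% of all genes were called in either direction. An unadjusted p under 0.05 in edgeR was reached by 4 of 13 members and by 1940 of 11803 genes, and DESeq2 called mt-Cytb. mt-Cytb stood at 5729 and 9224 CPM in DTR+ and 2734 and 3053 CPM in DTR- (1.92 ± 0.70, edgeR adjusted p = 0.176), and mt-Nd1 at 5556 and 7684 against 3919 and 4211 CPM (1.23 ± 0.68, edgeR adjusted p = 0.371). The 8 members counted in every library split in DTR+ replicate 3. In that library mt-Nd5 was at 1544 CPM, or 5.19% of the mitochondrial counts, against 3330 to 4770 CPM in the other 3 floating libraries. mt-Nd2 (230.3 against 334.8 to 393.2 CPM), mt-Nd6 (56.16 against 87.82 to 170.9 CPM) and mt-Tl1 (1.499 against 5.340 to 10.11 CPM) were also lowest there. mt-Cytb, mt-Nd1, mt-Co1 and mt-Nd4 were highest there. Means of mt-Nd2 and mt-Nd6 were lower in DTR+, at 275.3 and 211.8 CPM per kb, than in DTR-, at 350.6 and 249.3 CPM per kb. Leaving out any library here leaves the other alone on that side, so the calls of such fits are not given. The log2 difference in share ran from 0.365 without DTR+ replicate 3 to 0.591 without DTR+ replicate 2.

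Nuclear subunits of oxidative phosphorylation had 1 of 58 higher, the complex II anchor Sdhd (2.84 ± 0.70, edgeR adjusted p = 0.0322), with a list median of 1.39 against -0.041 over all genes. Cox4i1 stood at 2631 ± 32.2 CPM in DTR+ and 1167 ± 162 in DTR- and did not pass (1.64 ± 0.65, edgeR adjusted p = 0.213). Polrmt, Tfam, Lrpprc, Slirp and Ppargc1a did not pass (edgeR adjusted p = 0.38 to 0.853). Markers of other cells moved with the groups. The 4 endothelial markers summed to 3.95 to 23.9 CPM in DTR+ and 283 to 391 CPM in DTR-, the 3 erythrocyte markers to 4.91 to 17.1 and 57.9 to 62.5 CPM, the 3 mesothelial markers to 0.682 to 5.34 and 17.5 to 57.4 CPM, the 3 pericyte markers to 28.5 to 67.8 and 141 to 197 CPM, the 5 macrophage markers to 177 to 187 and 271 to 335 CPM and the 5 stromal markers to 197 to 234 and 587 to 1632 CPM. Cd14 alone of the macrophage markers had a higher mean in DTR+, at 91.9 ± 31.4 CPM against 13.5 ± 4.07. No member of these lists was at 0 in both libraries of a group, and their part in the result was not tested.

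VmSC5 cultures with and without Treg were compared to ask whether Treg cells restrain adipogenesis directly. Mitochondrial transcripts were lower with Treg, and unevenly so: mt-Nd1 fell most among the abundant members and mt-Co1 least. The mitochondrial share was 1.91%, 1.78% and 2.03% with Treg and 4.13%, 4.15% and 4.42% without, a 2.22-fold difference with no overlap (exact permutation p = 0.10, the smallest possible, and 0.150 after Benjamini-Hochberg adjustment). Of 20 tested members 18 were lower and 0 higher, where 21.0% of all genes were called lower. Some of the 18 could pass the low-count filter through the cultures without Treg alone. Among these were mt-Tt and mt-Tv, at most 1.39 and 1.25 CPM with Treg. Of the 8 members counted in every library, 8 were lower.

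mt-Nd1 was at 5477, 4927 and 5712 CPM with Treg and 17846, 17781 and 19614 CPM without (-1.77 ± 0.057, edgeR adjusted p = 6.89e-24). mt-Co1 was at 6151, 5983 and 6862 CPM with Treg and 8232, 8078 and 8507 CPM without (-0.37 ± 0.054, edgeR adjusted p = 4.15e-07). Neither overlapped between the groups, and the ratio of mt-Nd1 to mt-Co1 went from 2.17 to 2.31 without Treg to 0.824 to 0.890 with Treg. That is a 2.62-fold difference in balance (exact permutation p = 0.10, the smallest possible, and 0.240 after Benjamini-Hochberg adjustment over 12). mt-Cytb fell by 1.21 (SE 0.054), mt-Nd2 by 1.16 (SE 0.062), mt-Nd5 by 0.995 (SE 0.055), mt-Nd4 by 0.94 (SE 0.054) and mt-Nd6 by 0.63 (SE 0.076) on the log2 scale. Inside the copied region, mt-Nd3, mt-Atp6, mt-Co2 and mt-Co3 fell by 1.43, 1.28, 1.18 and 1.02. The mt-Co3 call was lost in DESeq2 and without 1 of 2 libraries (with Treg replicate 1 or without Treg replicate 2). Its highest adjusted p over edgeR and DESeq2 was 0.1. Levels of mt-Atp8 and mt-Nd4l, at most 0.835 CPM with Treg and 1.72 CPM without, were too low to be tested.

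The tRNAs also differed among themselves. mt-Tl1 fell from 60.8 to 64.3 CPM without Treg to 15.3 to 17.1 CPM with Treg (-1.93 ± 0.11, edgeR adjusted p = 1.2e-17), and mt-Tp from 19.6 to 21.5 CPM to 12 to 17.4 CPM (-0.52 ± 0.15, edgeR adjusted p = 0.00458). mt-Tq was at 9.19 to 11.5 CPM with Treg and 8.69 to 11.7 without, and did not pass (0.07 ± 0.19, edgeR adjusted p = 0.788). Those groups overlapped. mt-Tc did not pass either (edgeR adjusted p = 0.194).

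All 58 nuclear subunits of oxidative phosphorylation tested fell with Treg as well, with a median of -0.63 against -0.003 over all genes. Uqcrh and Cyc1 of complex III fell by 1.09 (SE 0.063) and 0.88 (SE 0.054), Cox7a1, a cytochrome oxidase subunit of muscle and brown fat, by 2.06 (SE 0.13), and Cox4i1 from 1643 ± 105 to 1058 ± 71.2 CPM. Of 46 genes of RNA synthesis and handling, 26 fell and 2 rose. Polrmt went from 93.1 ± 6.65 to 63.3 ± 3.93 CPM (-0.54 ± 0.079) and Lrpprc from 169 ± 3.67 to 116 ± 16.4 CPM (-0.53 ± 0.079), while Tfam, Slirp and Ppargc1a did not pass (edgeR adjusted p = 0.0618, 0.4 and 0.952). Pnpt1, an RNA nuclease of the mitochondrion that interferon induces, rose by 1.43 ± 0.076. Genes of mitochondrial translation had 22 of 31 lower and 0 higher, led by Mrpl34 (-1.46 ± 0.097). The adipocyte marker list summed to 13100 to 14926 CPM with Treg and 21117 to 22873 CPM without, the stromal list to 10508 to 12271 and 3911 to 4556 CPM, the pericyte list to 18.6 to 20.6 and 51.2 to 58.5 CPM and the macrophage list to 86.5 to 92.3 and 201 to 242 CPM, and their part in the result was not tested. Within the last list Lyz2 stood at 28.0 ± 2.68 CPM with Treg and 176 ± 12.6 CPM without. Csf1r (26.3 ± 2.22 against 14.3 ± 1.79 CPM), Adgre1 (14.3 ± 1.61 against 12.5 ± 5.7) and Cd68 (18.05 ± 0.68 against 17.1 ± 0.34) had higher means with Treg. Cd14 had a lower mean, at 2.49 ± 0.67 CPM with Treg and 3.44 ± 1.10 without. In the stromal list Lum was lower with Treg, at 51.45 ± 2.6 CPM against 76.6 ± 1.4, and the other members were higher. Most of the pericyte sum came from Cspg4, at 19.4 ± 1.03 CPM with Treg and 53.7 ± 3.82 without. Rgs5 had a higher mean with Treg (0.3116 against 0.1739 CPM) and Kcnj8 a lower one (0.1855 against 0.2965). Of the Treg markers Foxp3, Cd3e and Cd4 were at 0 in the cultures with Treg.

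OSM was compared with PBS to ask whether this cytokine acts on differentiating VmSC5 in a like manner. The members split: mt-Nd1 fell, mt-Nd4 did not pass, and mt-Co1 rose slightly. The share of mitochondrial counts was 1.53%, 1.64% and 1.59% with OSM and 2.92%, 2.49% and 2.40% with PBS, a 1.63-fold difference with no overlap (exact permutation p = 0.10, the smallest possible, and 0.150 after Benjamini-Hochberg adjustment). Of 9 tested members 7 were lower and 1 higher, where 23.0% of all genes were called lower and 22.8% higher. mt-Nd3, at most 7.46 CPM with OSM, could pass the low-count filter through the PBS cultures alone. Of the 8 members counted in every library, 6 were lower and 1 higher.

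mt-Nd1 was at 5272, 5984 and 5633 CPM with OSM and 15396, 12650 and 12522 CPM with PBS (-1.16 ± 0.082, edgeR adjusted p = 7.29e-17). mt-Co1 was at 3733, 3896 and 3949 CPM with OSM and 3708, 3562 and 3330 CPM with PBS, and here the lowest OSM library was above the highest PBS library by less than 1% (0.23 ± 0.075, edgeR adjusted p = 0.0099). The mt-Co1 call ended without the low-count filter and without PBS replicate 3 (highest edgeR adjusted p = 0.127). The ratio of mt-Nd1 to mt-Co1 was 1.41 to 1.54 with OSM and 3.55 to 4.15 with PBS, again a 2.62-fold difference (exact permutation p = 0.10, the smallest possible, and 0.240 after Benjamini-Hochberg adjustment over 12). mt-Nd2 fell by 0.81 (SE 0.11), mt-Nd6 by 0.56 (SE 0.15), mt-Nd5 by 0.44 (SE 0.077) and mt-Cytb by 0.38 (SE 0.079), while mt-Nd4, at 1041 to 1172 CPM against 1090 to 1418, had a log2 fold change of -0.04 ± 0.084 (edgeR adjusted p = 0.7). mt-Tl1 went from 36.1 to 45.2 CPM to 7.89 to 12 CPM (-1.99 ± 0.27) and mt-Nd3 from 11.1 to 28.6 to 3.29 to 7.46 CPM (-1.84 ± 0.41).

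**Figure D5:**
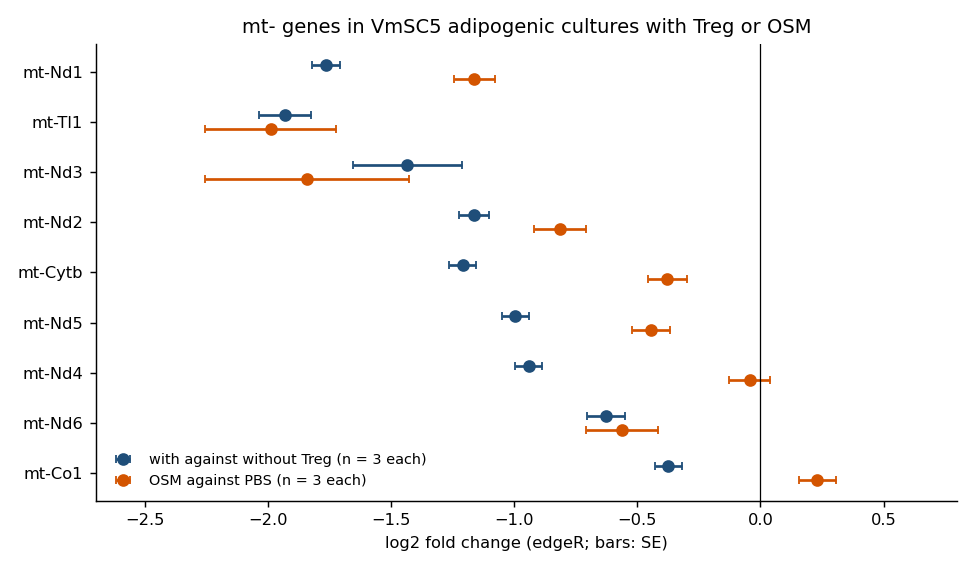
edgeR log2 fold changes with SE (x axis) of the 9 mt- genes tested in both experiments (y axis), with against without Treg in blue and OSM against PBS in orange (3 libraries in each group). mt-Co1 lies rightmost in both, at -0.37 and 0.23, and mt-Nd1 at -1.77 and -1.16.

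With OSM, 50 of 56 tested nuclear subunits of oxidative phosphorylation were lower and 0 higher, with a median of -0.96 against 0.004 over all genes. Cyc1 fell by 1.82 (SE 0.089), Atp5b, the catalytic subunit of ATP synthase, by 1.31 (SE 0.076), and Cox4i1 from 618 ± 26.4 to 348 ± 62.3 CPM (-0.72 ± 0.094). Of 44 genes of RNA synthesis and handling 27 fell and 0 rose. Ppargc1a went from 22.3 ± 2.32 to 2.22 ± 1.37 CPM (-3.25 ± 0.45), its relative Ppargc1b fell by 4.88 (SE 0.40), Lrpprc by 1.31 (SE 0.14), Polrmt by 0.72 (SE 0.17) and Tfam by 0.58 (SE 0.22), and Slirp did not pass (edgeR adjusted p = 0.281). Genes of mitochondrial translation had 19 of 29 lower, led by Mrpl12 (-1.85 ± 0.14). The adipocyte marker list summed to 960 to 1409 CPM with OSM and 11082 to 12971 CPM with PBS, with Lep at 0 in both, and the stromal list to 47224 to 57348 and 10472 to 10890 CPM. The endothelial list summed to 97.9 to 121 CPM with OSM and 19.6 to 29.4 CPM with PBS, the pericyte list to 28.9 to 44.7 and 7.67 to 10.1 CPM, and the mesothelial list to 5.62 to 9.20 and 23.9 to 42.5 CPM, with Upk3b at 0 with OSM. Within the mesothelial list Krt19 went the other way, with a mean of 6.85 CPM with OSM and 4.66 CPM with PBS. Within the pericyte list Cspg4 did so, with a mean of 1.45 CPM with OSM and 6.51 CPM with PBS. The part of these marker lists in the result was not tested. Malat1 rose with OSM (0.48 ± 0.084) and fell with Treg (-0.33 ± 0.055).

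The OSM and the Treg experiment share no library, and the difference of their responses was tested in 1 fit. Of 19 members, 5 had a less negative or more positive response to OSM than to Treg and 0 the reverse, where 15% of all genes differed in the former direction. These were mt-Nd4 (0.94 ± 0.10), mt-Cytb (0.87 ± 0.095), mt-Nd1 (0.64 ± 0.10), mt-Co1 (0.64 ± 0.090) and mt-Nd5 (0.59 ± 0.094). Each had an adjusted p under 0.05 (edgeR or DESeq2) in all 17 alternatives run. mt-Tl1 (-0.02 ± 0.25) and mt-Nd6 (0.10 ± 0.16) did not pass (edgeR adjusted p = 0.986 and 0.667). Among nuclear subunits of oxidative phosphorylation, 25 of 58 responded more negatively to OSM, where 17.5% of all genes did, and 3 less so. The experiments differed in depth, with 1072147 to 2078534 counts per library for OSM and PBS and 4648878 to 7933682 for the Treg cultures, and in their control levels, so the experiment and the treatment cannot be told apart.

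The last comparison set Osm KO against Osm WT Treg cells. Their mitochondrial shares overlapped, at 0.918%, 0.642% and 1.08% in Osm KO and 0.862%, 0.893% and 0.739% in Osm WT (1.04-fold, exact permutation p = 0.800). Of 10 tested members 0 passed in edgeR, where 0.0526% of all genes did in either direction, and DESeq2 called 0 members. An unadjusted p under 0.05 in edgeR was reached by 1158 of 11416 genes and by 2 members. Those 2 were mt-Nd6, at 51.5, 89.6 and 94.4 CPM in Osm KO and 34.3, 47.3 and 36.6 CPM in Osm WT (1.03 ± 0.28, edgeR adjusted p = 0.347), and mt-Cytb, at 2160, 1817 and 2461 against 1605, 1586 and 1424 CPM (0.52 ± 0.14, edgeR adjusted p = 0.347). Neither overlapped between the groups, and both passed without Osm KO replicate 1, the library with the low Foxp3 level (edgeR adjusted p = 0.00319 and 0.0245). The share of all genes called in that fit is not given here, so these 2 calls cannot be set against it. The ratio of mt-Nd1 to mt-Co1 was 1.44 to 1.57 in Osm KO and 1.28 to 1.41 in Osm WT, with no overlap (1.14-fold, exact permutation p = 0.10, the smallest possible, and 0.240 after Benjamini-Hochberg adjustment). None of the lists of nuclear genes for mitochondria held a called gene in edgeR, and Cox4i1 stood at 602 ± 69.6 CPM in Osm KO and 463 ± 16.5 in Osm WT (0.42 ± 0.14, edgeR adjusted p = 0.38).

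Across the 15 groups, the nuclear genes whose mean level followed the mitochondrial share most closely, among 10263 genes with a group mean of at least 20 CPM, were Commd3 (Pearson r = 0.969), Apool (0.954), Tmem126b (0.951), Immp1l (0.947) and Ap3s1 (0.937), as a description over groups that differ in cells, preparation and depth. Apool, a protein of the inner mitochondrial membrane folds, ran from 8.18 to 69.2 CPM, Tmem126b, an assembly factor of complex I, from 22.0 to 99.2 CPM, and Immp1l, an inner membrane peptidase, from 7.31 to 40.6 CPM. By the same measure Slirp had an r of 0.77, Cox4i1 of 0.769 and Lrpprc of 0.195.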

How the data were processed

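The authors deposited 1 table of gene counts, with whole numbers for 55011 genes in 42 libraries. Per the submitters' processing notes, reads were aligned to mm10 with STAR 2.7.3a and counted with featureCounts; annotation, strand and handling of shared reads are not given in the sources used here. Per the labels' protocols, sorted libraries held 1000 cells and floating cells 2 ng of RNA. Counts were tested with edgeR 4.0.16 (quasi-likelihood, robust, TMM, default filter at a minimum count of 10) in R 4.3.3, each experiment in its own fit, with Benjamini-Hochberg adjustment over all tested genes and a call at adjusted p under 0.05. The SE is the log2 fold change divided by the square root of F. CPM are parts per 1e+06 of the library total. Shares and ratios were tested by exact two-sided permutation on log2 values over libraries. Nuclear copies were found with BLAST 2.17.0 among GENCODE M21 transcripts, at 99% identity over 200 bases or more. The script was tested on simulated data. Alternatives were RLE scaling, scaling without mt- genes, DESeq2 1.42.0, no filter, a replicate block, other groups in the fit and leaving out each library.

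The members and lists were chosen with earlier results of these data known. Named were all 13 protein genes, the 4 tRNAs with the highest mean share and called tRNAs that reached 20 CPM in a group, Polrmt, Tfam, Lrpprc, Slirp, Ppargc1a and Cox4i1, up to 3 called genes per list and comparison, and the 5 genes most like the mitochondrial share (Pearson r of log2(CPM + 1) group means); other tRNAs were named after their values were seen. The ratio of mt-Nd1 to mt-Co1 was chosen after seeing the data. A balance of rRNA to mRNA was planned and not run, because the rRNA genes were not analysed here.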

Additional observations from a re-analysis of the deposited data

Results flagged for a closer look

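Responses of mitochondrial genes differed between groups in 2 tests of the difference itself, on the log2 scale. The rise in adipogenic culture was larger in VmSC5 than in VmSC4 for mt-Atp6 (2.82), mt-Nd6 (2.47), mt-Co1 (2.02), mt-Nd1 (1.80), mt-Tl1 (1.70), mt-Cytb (1.32) and mt-Nd4 (1.16). Only mt-Nd6, mt-Cytb and mt-Nd4 kept the call in all 17 alternatives run. mt-Atp6 kept it in 9, mt-Tl1 in 7, and mt-Co1 and mt-Nd1 in 6 each. The test of the culture responses uses the same fresh libraries as the comparison of the fresh cells, where mt-Nd1, mt-Co1 and other members were lower in VmSC5. After culture no member differed past the threshold in edgeR, so that test is not separate from the comparison of the fresh cells. mt-Atp6 could pass the low-count filter through the cultures alone. It matches the nuclear transcript Gm10925 over 678 bases, and mt-Nd4 and mt-Co1 match nuclear transcripts in part. The response to OSM was less negative or more positive than that to Treg for mt-Nd4 (0.94), mt-Cytb (0.87), mt-Nd1 (0.64), mt-Co1 (0.64) and mt-Nd5 (0.59). In that test the experiment and the treatment cannot be told apart.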

How the results depend on the processing

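Among counts of called members, shares and ratios under the alternatives, 359 stayed near the reported value and 20 moved. Of the single-member results under alternatives, 1922 kept their side of the threshold, 55 lost it and 31 gained it, and none changed sign with a call. The count of 0 in VmSC4-derived VmSC5 against VmSC4-derived VmSC4 became 1 with DESeq2, 2 without the filter and 4 with only the compared groups. Shares of all genes called in these fits are not given here. With scaling without mt- genes, all calls in this comparison went from 104 higher and 143 lower to 85 and 189. Leaving out each library in turn gave 3 to 9 members in the difference of culture responses and 0 to 2 in the Treg cells (2 without Osm KO replicate 1). The log2 share difference then ran from -0.114 to 0.217 between VmSC4-derived and VmSC5-derived VmSC5, and from 0.365 to 0.591 in floating cells. Over all genes, higher and lower calls in floating cells went from 58 and 229 to 20 and 91 with the replicate block. Those in Treg cells went from 1 and 5 to 19 and 35 with DESeq2. Floating cells had 1 called member with DESeq2, and the Treg cells 1 without the filter. Small libraries limit the tRNAs and the members inside the copied region.

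Same-numbered libraries did not deviate together (correlations of -0.093 to 0.164 outside the floating cells), so the numbers were not taken as pairs. In the VmSC5 and VmSC4 cultures every library correlated best with its own number. With the replicate block, 4 members were called in the difference of culture responses; no other call of a member ended or began with the block. In the floating cells the correlation was -0.397, and with crossed numbers, added after seeing the data, the replicate block called 1 member.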
